A study of Saccharomyces cerevisiae with 6 samples.

Results

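The large (60S) subunit of the ribosome is built by assembly factors, which bind the ribosomal RNA precursor, guide its folding and cutting, and leave before the subunit translates. Here, the transcripts of 40 such factors were followed in budding yeast that overexpressed GST-Med3 or GST. The 40 genes were taken by name as assembly and export factors of this subunit, by a rule that uses no measured value, although earlier results of these data were known when the list was made. They are 40 of the 5449 S. cerevisiae genes with a probe set on the array, and each of the 40 had 1 probe set.

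Assembly starts in the nucleolus, where early factors join the nascent RNA, and continues in the nucleoplasm, where the particle is remodelled and checked. The particle is then exported, and the last factors are released in the cytoplasm. In budding yeast the genes for these factors belong to the ribosome biogenesis regulon, which is known to be transcribed strongly in growing cells and repressed under stress and starvation.

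The study asked whether amyloid formation, which it reports on overexpression of Med3, a subunit of the Mediator tail, changes transcript levels across the genome. Cells in 1 group overexpressed GST-Med3, a fusion of Med3 to glutathione S-transferase, and cells in the other group overexpressed the tag (GST) alone. Both groups were grown in galactose medium without uracil, and in both the protein was made from a plasmid under the galactose-induced GAL1/10 promoter. Its arrays were made after the long induction at which the study also saw amyloid staining. The study reports lower transcript levels from this promoter for the Med3 construct than for GST. It also reports that Med3-overexpressing cells failed to grow on galactose with the respiration inhibitor antimycin A. A part of galactose use or culture stage in the differences below was not tested. There were 3 biological replicates per group, called A, B and C, with 1 array each. The study lists only BY4741, a laboratory strain of the a mating type, and strains derived from it, and the titles of the GST arrays carry the digits of that name, those of the GST-Med3 arrays the end of the MED3 locus name YGL025C. The strains it lists with a Med3 plasmid carried a tag on Med18 or on Med3, and none is listed as lacking MED3. Which of them was put on the arrays is not stated.

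MED3, listed as PGD1, had a log2 signal of 11.85, 11.73 and 11.84 with GST-Med3, against 8.24, 8.01 and 8.07 with GST, so that the label of each array was borne out. The probe set does not tell plasmid from chromosomal transcripts. Fission yeast (S. pombe) has its own probe sets on the array, which served to read the background, and 95% of them gave a log2 signal below 7.50. All 6 markers of yeast a cells were bright, with 12.19 for the pheromone gene MFA1 with GST-Med3 and 11.49 with GST. The pheromone gene of alpha cells, MF(ALPHA)1, stayed at background, with 6.88 with GST-Med3 and 6.64 with GST, as did MF(ALPHA)2. The alpha cell genes SAG1 (9.13 with GST-Med3, 8.76 with GST) and STE3 (7.95 with GST-Med3, 8.41 with GST) were above it. The listed genotype of BY4741 has deletions in HIS3, LEU2, MET15 and URA3. MET15, listed as MET17, stayed at background, with 6.37 in both groups. Well above background were HIS3 (10.52 with GST-Med3, 10.48 with GST), LEU2 (10.48 with GST-Med3, 10.92 with GST) and URA3 (13.59 with GST-Med3, 13.87 with GST). Where these signals came from was not tested. All 40 assembly factor genes were above background, at 8.49 or more on every array.

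The deposited arrays differ by small offsets. The median log2 signal over all probe sets was 9.96, 9.87 and 9.99 on GST-Med3 arrays A, B and C, and 10.08, 9.99 and 10.04 on GST arrays A, B and C. Over all probe sets, the median log2 difference, GST-Med3 minus GST, was therefore -0.085 as deposited. Subtracting from each array its median moved this to 0.01, a shift of 0.0952, and is called centring here. The values are as deposited unless centring is named. The test was that of limma, two-sided and adjusted over all probe sets by Benjamini-Hochberg, with a threshold of 0.05, and a gene is said to have risen only where it passed. On the values as deposited, limma estimated 1 common variance, and each difference has the same standard error of 0.05.

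Transcripts of most 60S assembly factors were higher in cells with GST-Med3. Of the 40 genes, 33 rose and 7 did not pass the test, where 27.1% of all probe sets were called higher. None of the 40 fell by limma, at the adjusted or at an unadjusted p under 0.05, whereas 47.8% of all probe sets were called lower. The difference was above 0 for 39 of the 40 genes, against 39.5% of all probe sets, and DBP10 was the exception. The median difference of the 40 genes was 0.32, with a range of -0.05 to 1.13. Every GST-Med3 array lay above every GST array for 31 of the genes, where the share over all probe sets was 26.6%, and for none did every GST-Med3 array lie below every GST array, where that share was 48.4%.

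Centring raised all differences alike. After it, all 40 genes passed the test as higher, with a median difference of 0.41, while 43.6% of all probe sets were called higher and 51.2% had a difference above 0. For 39 of the 40 genes the centred groups did not overlap, against 43.2% of all probe sets with GST-Med3 above. Measured from the median of its own array, the mean of the 40 genes was 0.900, 0.898 and 0.900 on GST-Med3 arrays A, B and C. It was 0.429, 0.441 and 0.438 on GST arrays A, B and C. The 3 arrays of a group were thus much closer to each other than to the other group.

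**Figure D1:**
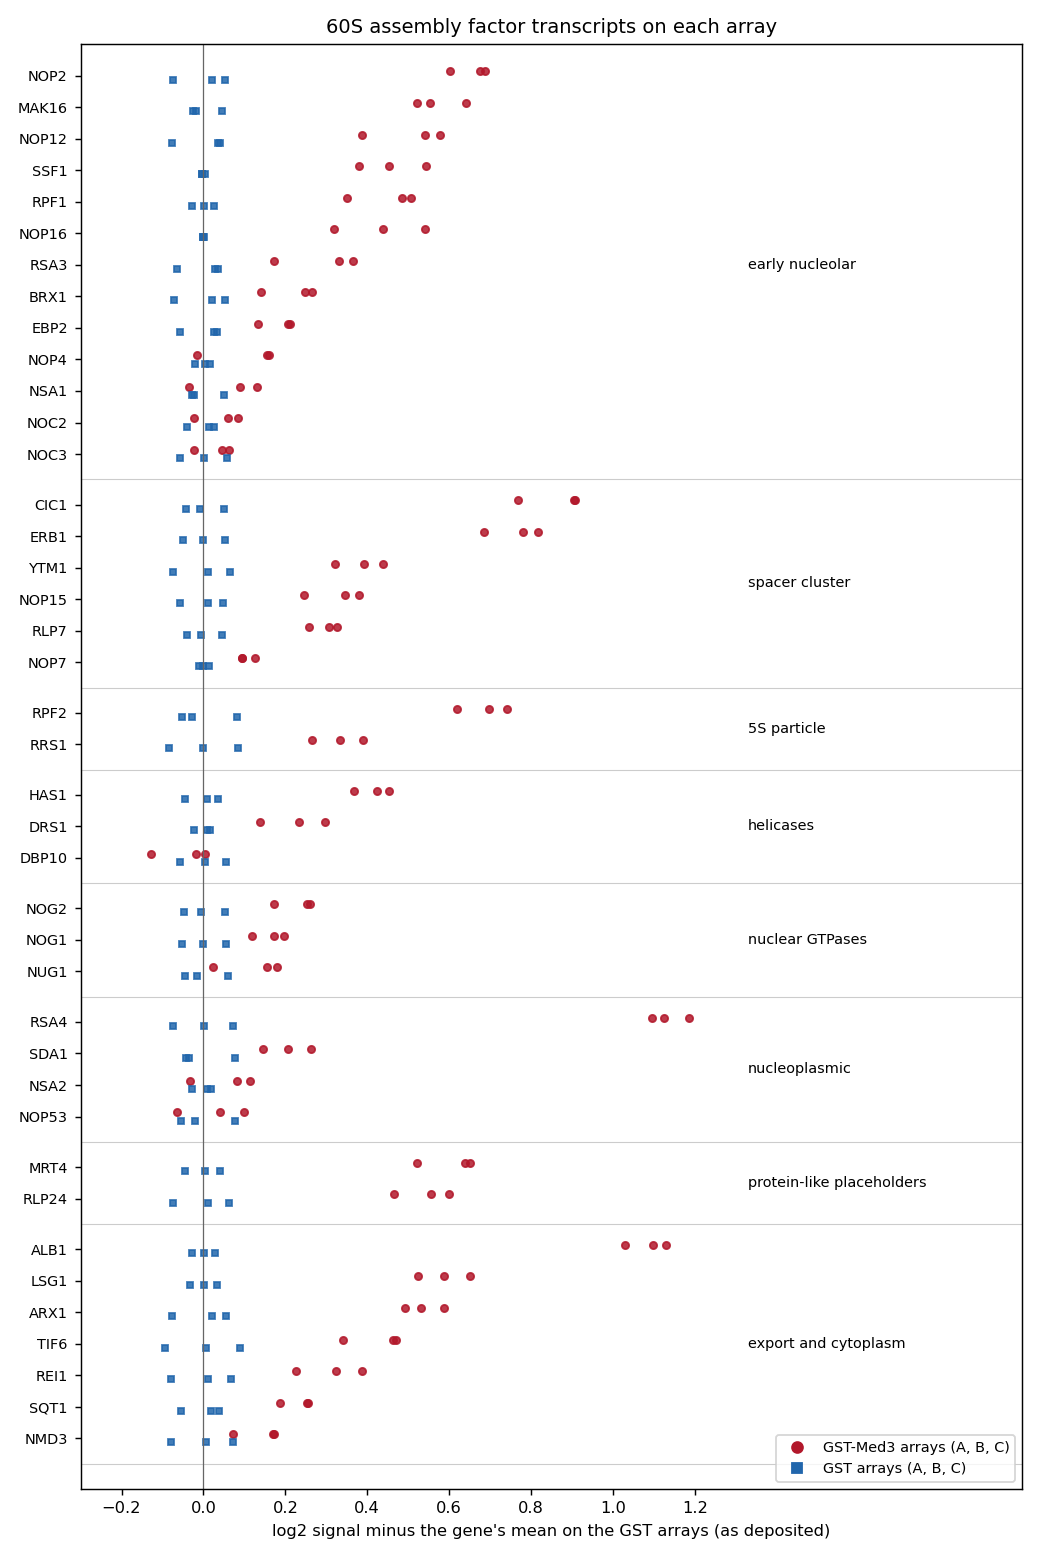
Log2 signal of each of the 40 genes on each array, as deposited, minus the mean of that gene on the GST arrays (x axis), with genes in rows grouped by role. Circles are the 3 GST-Med3 arrays and squares the 3 GST arrays. RSA4 and ALB1 lie farthest to the right, with mean differences of 1.13 and 1.09, and the groups overlap for 9 genes, among them DBP10.

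The early nucleolar factors bind the RNA precursor first. Of these 13 genes, 9 rose and 4 did not pass the test, with a median difference of 0.29. NOP2, which encodes a methyltransferase of the large ribosomal RNA, had 11.12, 11.04 and 11.11 with GST-Med3, against 10.49, 10.36 and 10.46 with GST (log2 signal). This is a 1.58-fold increase, and the lowest GST-Med3 array lay well above the highest GST array. MAK16, which encodes a partner of Rpf1 and Nsa1 in an early subcomplex, rose by 0.57. NOP12, which encodes an RNA-binding protein of large subunit RNA processing, rose by 0.50.

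SSF1, RPF1 and BRX1 encode proteins of the Brix family, which bind RNA in early particles. SSF1 had 9.26, 9.18 and 9.35 with GST-Med3, against 8.80, 8.80 and 8.81 with GST. The groups were apart. The GST arrays were almost equal as deposited, but had -1.28, -1.19 and -1.23 after centring. RPF1 rose by 0.45 and BRX1 by 0.22. NOP16, RSA3 and EBP2, whose products are also part of early particles, rose by 0.43, 0.29 and 0.18.

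The other 4 early genes did not pass the test as deposited. NOP4, which encodes a protein with RNA recognition motifs, had a difference of 0.10, and NSA1 had 0.06. NOC2 and NOC3, whose products form a complex that accompanies the particle out of the nucleolus, had 0.04 and 0.03. On each of these 4 probe sets the groups overlapped, with GST-Med3 array B within or below the range of the GST arrays. After centring, their differences were 0.20, 0.16, 0.14 and 0.12 in the same order, all past the test and without overlap.

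A second set of factors sits at the spacer between the RNAs of the large subunit, and is needed to cut and remove it. All 6 genes of this cluster rose, with a median difference of 0.35. CIC1, whose product binds the spacer, had 11.55, 11.41 and 11.55 with GST-Med3, against 10.70, 10.60 and 10.64 with GST. Its increase was 1.82-fold, the third largest of the 40 genes. ERB1 had 11.07, 10.94 and 11.04 with GST-Med3, against 10.31, 10.21 and 10.25 with GST, a 1.69-fold increase. NOP15 and RLP7, which encode an RNA-binding protein and a relative of a ribosomal protein, rose by 0.32 and 0.30.

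Erb1, Nop7 and Ytm1 form 1 complex, but their transcripts did not rise to the same extent. YTM1 rose by 0.38. NOP7 had 11.00, 11.00 and 11.03 with GST-Med3, against 10.92, 10.90 and 10.91 with GST, a difference of 0.11 that is only just past the test (adjusted p = 0.0477 from limma). It was the smallest difference among the genes that rose. Its call was lost when GST-Med3 array A or C, or any 1 of the GST arrays, was left out, and with dim probe sets left out or a trend in the variance, with differences of 0.09 to 0.11. After centring, NOP7 was higher by 0.20.

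Rpf2 and Rrs1 load the 5S RNA with its ribosomal proteins, and both genes rose. RPF2 had 11.24, 11.16 and 11.28 with GST-Med3, against 10.62, 10.51 and 10.49 with GST, a difference of 0.69. RRS1 had a difference of 0.33. On neither probe set did the groups overlap.

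Helicases of the DEAD-box family open RNA helices during assembly. HAS1 rose by 0.41 and DRS1 by 0.22. DBP10 had 10.86, 10.75 and 10.89 with GST-Med3, against 10.94, 10.82 and 10.89 with GST. The groups overlapped, and the difference of -0.05 did not pass the test as deposited. After centring it turned to 0.05, barely past the threshold (adjusted p = 0.0485 from limma), so that DBP10 has no settled direction.

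GTPases act as timers and checkpoints in the nucleus. All 3 nuclear GTPase genes rose, by smaller amounts than most other groups, with 0.23 for NOG2, 0.16 for NOG1 and 0.12 for NUG1. The groups of NUG1 overlapped, since GST-Med3 array B (11.62) lay below GST array A (11.65). Its call was lost without any 1 of GST-Med3 arrays A and C and GST arrays B and C, and with a trend in the variance, with differences of 0.09 to 0.12. After centring the differences were 0.32 for NOG2, 0.26 for NOG1 and 0.21 for NUG1.

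RSA4 had the largest difference of the 40 genes. Its product is the handle by which the ATPase Rea1 pulls factors off the nucleoplasmic particle. It had 9.79, 9.76 and 9.85 with GST-Med3, against 8.74, 8.59 and 8.67 with GST (log2 signal). The groups were separated by more than 1 log2 unit, and the increase was 2.20-fold (difference 1.13 as deposited and 1.23 after centring, adjusted p = 2.97e-13 from limma after centring). SDA1, needed for late nuclear maturation, rose by 0.20.

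The other factors of the nucleoplasm did not pass the test as deposited. NSA2, whose product joins late nuclear particles, had a difference of 0.05. NOP53, which encodes the factor that brings the exosome to the RNA, had 10.24, 10.14 and 10.30 with GST-Med3, against 10.18, 10.28 and 10.15 with GST. Its difference was 0.02. It was the 1 gene of the 40 whose groups still overlapped after centring, with a difference of 0.12 and the largest standard error of the set, 0.0422. Its centred call was lost when GST-Med3 array C, GST array A or GST array C was left out.

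Placeholders are proteins that occupy the site of a ribosomal protein until the cytoplasm is reached, and both of their genes rose. MRT4, which encodes a relative of the stalk protein P0, had 12.02, 11.90 and 12.03 with GST-Med3, against 11.42, 11.34 and 11.38 with GST. The groups did not overlap and the increase was 1.52-fold. RLP24, which encodes a relative of a large subunit protein, rose by 0.54.

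All 7 genes for export and cytoplasmic release rose, with a median difference of 0.42. ALB1, whose product binds Arx1 on the particle, had 10.65, 10.55 and 10.62 with GST-Med3, against 9.55, 9.50 and 9.53 with GST. This 2.12-fold increase was the second largest of the 40, and only RSA4 and ALB1 reached 2-fold as deposited, where 0.637% of all probe sets did. The study lists CIC1 as above 2-fold as well, and gives larger increases for RSA4 and ALB1 than were found here. After centring, the difference of CIC1 was 0.96, still under 2-fold. Why the values of the study are larger was not tested. ARX1, which encodes an export factor, had 10.65, 10.61 and 10.71 with GST-Med3, against 10.17, 10.04 and 10.14 with GST, a difference of 0.54. LSG1, a cytoplasmic GTPase that helps to release Nmd3, rose by 0.59.

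TIF6, whose product keeps the subunits apart until late maturation, rose by 0.42. REI1, needed to release Arx1 in the cytoplasm, rose by 0.31, and SQT1, a chaperone of the ribosomal protein Rpl10, by 0.23. NMD3, the adaptor for nuclear export, had the smallest difference of this group, 0.14. Its groups overlapped by a narrow margin, and its call was lost without GST-Med3 array A or GST array B, with differences of 0.12 and 0.10. After centring, NMD3 was higher by 0.23 without overlap.

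Ratios of 2 transcripts on the same array do not change when an array is scaled by a constant. They were therefore used to compare genes whose products act together. Over all 780 pairs of the 40 genes, the ratios of the groups did not overlap in 85.4% of pairs. This share reflects the spread between replicates as well as the differences. It was not computed for pairs of other probe sets, and cannot be read as particular to these genes. Of all single probe sets after centring, 43.2% had every GST-Med3 array above every GST array and 42.2% had every one below. In addition, 14 pairs of partners or paralogs were looked at, which were chosen after the values had been seen. In 11 of the 14 the groups did not overlap, which is not more often than among all pairs of the 40 genes. The pairs of SSF1 and REI1 with their paralogs are among the 11 and reach outside the 40 genes. The shares are therefore not drawn from the same set. With 3 arrays against 3, a two-sided exact permutation test cannot give a p under 0.1. Groups that do not overlap always have this smallest value, so the test adds nothing for the 11 pairs.

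The log2 ratio of ERB1 to NOP7 was 0.07, -0.06 and 0.0035 with GST-Med3, against -0.61, -0.69 and -0.65 with GST. It was higher with GST-Med3 by 0.66. Within the same complex, the ratio of YTM1 to NOP7 was higher by 0.28. The ratio of CIC1 to NOP15 was higher by 0.54, that of ALB1 to ARX1 by 0.55 and that of RPF2 to RRS1 by 0.36. MAK16 and RPF1 were both higher relative to NSA1, by 0.51 and 0.39.

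The other 3 pairs gave overlapping groups. The ratio of BRX1 to EBP2 was 1.07, 1.03 and 1.08 with GST-Med3, against 1.04, 1.01 and 1.02 with GST. The ratio of NOC2 to NOC3 differed by 0.01 and that of MAK16 to RPF1 by 0.12. Overlap on 3 arrays does not show that the members of these pairs moved alike.

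**Figure D2:**
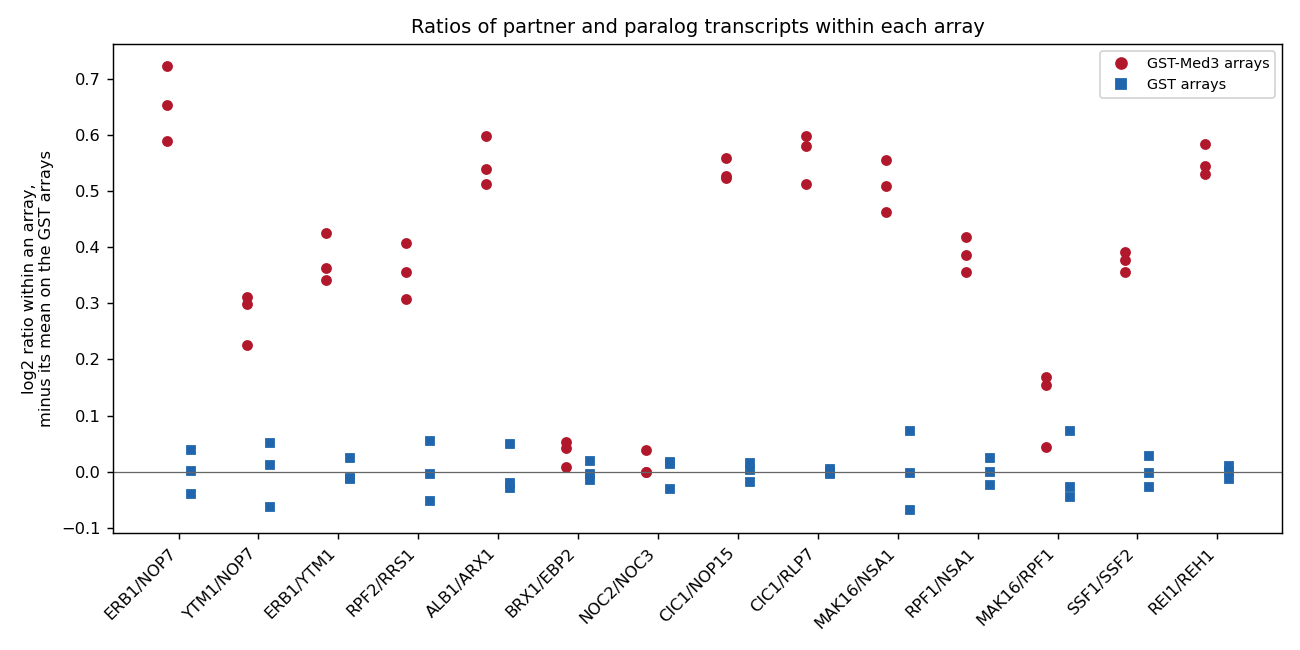
Log2 ratio of 2 transcripts within an array, minus the mean of that ratio on the GST arrays (y axis), for the 14 pairs (x axis). Circles are the 3 GST-Med3 arrays and squares the 3 GST arrays; the ratio of ERB1 to NOP7 changed by 0.66, whereas the groups overlap for BRX1/EBP2, NOC2/NOC3 and MAK16/RPF1.

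SSF1 and REI1 each have a paralog on the array. SSF2, a close copy of SSF1, had 9.24, 9.21 and 9.35 with GST-Med3, against 9.18, 9.15 and 9.21 with GST. Its difference of 0.08 did not pass the test as deposited, whereas SSF1 rose by 0.46. After centring SSF2 passed as higher, with 0.18 and groups that did not overlap. The ratio of SSF1 to SSF2 was higher by 0.38. The copies are alike in sequence, and how far each probe set takes up the transcript of the other was not tested. REH1, the paralog of REI1, fell by 0.24 as deposited and by 0.15 after centring. The ratio of REI1 to REH1 was higher by 0.55.

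Other genes of the pathway were compared by a list of 49 further 60S factors. Here 34 genes rose and 6 fell, while 9 were not called, and the median difference was 0.24. After centring, 41 were higher and 3 lower. The largest increases were in DBP6, an early helicase gene (0.77), BUD20, an export factor gene (0.76), and GRC3, a gene of spacer processing (0.74). Besides REH1, the largest decreases were in RIA1, which encodes a cytoplasmic GTPase that releases Tif6 (-0.21), and LAS1, which encodes the nuclease that works with Grc3 (-0.19).

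The genes for assembly of the small subunit gave similar counts. Of 56 such genes, 42 rose and 2 fell, with a median difference of 0.32. After centring, 52 were higher and 2 lower. NOC4, ENP1 and UTP15 had the largest increases, with 1.26, 1.10 and 1.09, and ESF1 and RIO1 fell by 0.35 and 0.31. Of the 75 large subunit ribosomal protein genes measured (of 81 listed), whose products the 40 factors assemble, 33 rose and 7 fell, with a median difference of 0.09. Their largest increases were in RPL22B, RPL4B and RPL37B (0.50, 0.49 and 0.46), and their largest decreases in RPL17A, RPL8A and RPL15B (-0.30, -0.17 and -0.15). After centring, 61 ribosomal protein genes were higher and 3 lower. Many of them are near-identical pairs, whose probe sets can take up both transcripts. The lists were not tested against each other.

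**Figure D3:**
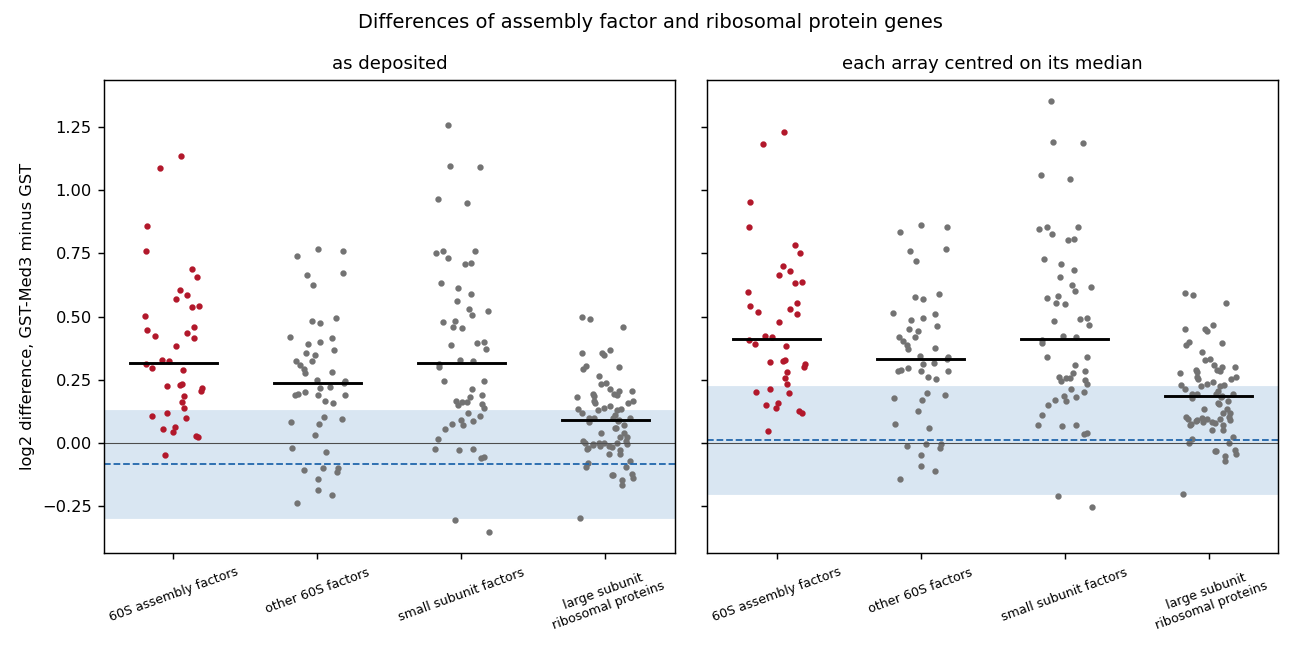
Log2 difference, GST-Med3 minus GST (y axis), of each gene in 4 lists (x axis), as deposited (left) and after centring each array on its median (right). Black bars are list medians, the dashed line and the shaded band are the median and quartiles of all 5498 probe sets; the median of the 60S assembly factors was 0.32 as deposited and 0.41 after centring, against -0.085 and 0.01 for all probe sets.

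Gene length and difference were weakly related among the 40 genes. Spearman's rho was -0.35 across the 40 genes and -0.07 across all 5498 probe sets. These are descriptions, since the genes share the same arrays. The 20 shorter genes had a median difference of 0.38, with 18 of them risen, and the 20 longer genes had 0.21, with 15 risen. ERB1, with 2424 bp, and ALB1, with 528 bp, were both among the 4 largest increases. RNA integrity and the place of the probes along each gene were not analysed here, and their part in this relation was not tested.

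**Figure D4:**
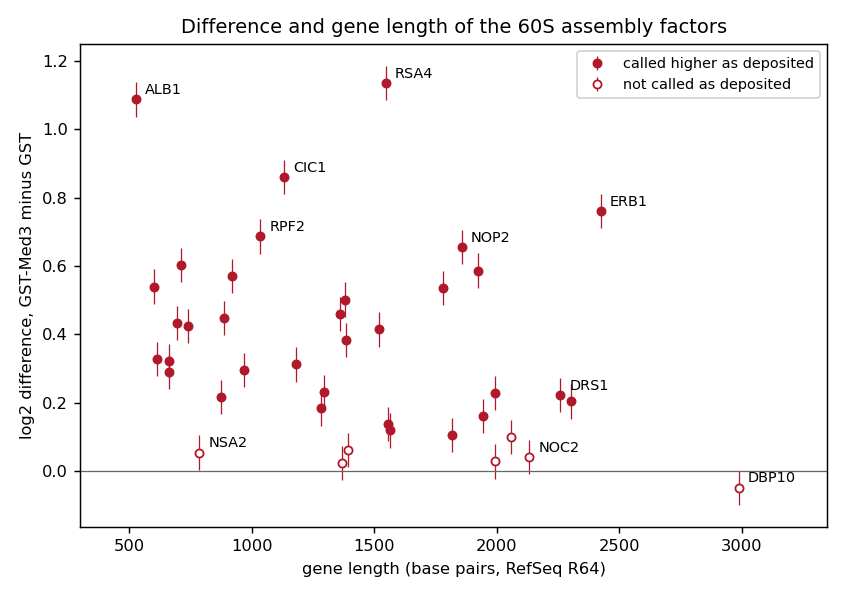
Log2 difference, GST-Med3 minus GST, as deposited (y axis), against gene length in base pairs from RefSeq (x axis) for the 40 genes, with bars for the standard error of 0.05. Filled points rose and open points did not pass the test; the 7 open points include DBP10, the longest gene with 2988 bp.

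The 40 genes are spread over 15 of the 16 nuclear chromosomes, and no 2 of them are direct neighbours. Of the 76 neighbouring genes that were measured, 20 (26.3%) were higher and 40 (52.6%) lower, near the 27.1% and 47.8% of all probe sets, with a median difference of -0.13. After centring, 31 (40.8%) were higher and 36 (47.4%) lower, where the shares of all probe sets were 43.6% and 41.7%. Among the neighbours, 19 were divergent, which start from the same stretch between genes, and of these 7 (36.8%) were higher and 10 (52.6%) lower as deposited, and 8 were higher and 8 lower after centring. With 19 genes, these shares say nothing particular about divergent neighbours. The neighbours named here were picked after their values were seen. MTC1, which diverges from ALB1, fell by 0.57, and NUP133, which diverges from RPF2, fell by 0.22. FSF1, which diverges from YTM1, rose by 0.97, and GCD10, which diverges from NOP2, rose by 0.56. RPE1, which faces the end of ALB1 from the other strand, rose by 1.07.

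NSA2, NMD3, RSA3 and NOG2 lie next to a gene of the small subunit list used here, which need not hold every such gene. LCP5 diverges from NSA2 and rose by 0.76, while NSA2 had 0.05. DBP8, upstream of NMD3 on the same strand, rose by 0.71, while NMD3 had 0.14. For the other 2 pairs the values were closer, with 0.29 for RSA3 and 0.30 for UTP13, and 0.23 for NOG2 and 0.19 for ESF2.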

How the data were processed

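RNA of 3 GST-Med3 and 3 GST cultures was hybridized to Affymetrix yeast arrays. For every probe set on each array the deposited value is the log10 of a signal, which the authors had normalized. How background was corrected and probes were summarized could not be taken from any source used here. That the logarithm has base 10 follows from the values themselves, whose powers of 10 had no more than 2 decimals in 100% of cells. They were converted to log2. Of 10928 probe sets, 5498 (5449 genes) matched S. cerevisiae genes of RefSeq by gene ID and were tested, and 3683 had no gene listed. The other 1747 had a gene ID outside those RefSeq genes and were for that reason taken as S. pombe. Low signals were kept. Arrays were grouped by the protein that the labels give as overexpressed. Models were fitted with lmFit and eBayes of limma 3.58.1 under R 4.3.3, with no variance trend. The code was tested on simulated data without array offsets, and with offsets followed by centring. Values with offsets and no centring, as in the main fit, were not simulated. All 40 assembly factor genes are accounted for. In each role group the 3 largest differences, the smallest and every gene not called are named, and in the other lists the 3 largest in each direction among called genes. The members and lists were chosen with earlier results of these data known. A planned search of promoter motifs was not run. Alternatives were centring, quantile normalization, subtraction of the median S. pombe signal (floor of 16 units) with centring, a filter on dim probe sets, a variance trend, the replicate block, leaving out each array and, added after the data had been seen, leaving out each array after centring. The number of arrays limits the precision.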

Additional observations from a re-analysis of the deposited data

How the results depend on the processing

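Under all 19 alternatives, 30 of the 33 genes that rose stayed past the test as higher, and the exceptions were NOP7, NUG1 and NMD3. No alternative called any of the 40 genes lower. The count of genes called higher was 30 to 36 when 1 array was left out as deposited, and 38 or 39 when it was left out after centring. The median difference of the 40 genes was 0.41 after centring (with or without the replicate block), 0.41 after quantile normalization and 0.44 after background subtraction with centring. With 1 array left out it was 0.28 to 0.36 as deposited and 0.40 to 0.42 after centring. DBP10, with -0.05 as deposited, was called higher with 0.0472 after centring, which adds the shift of 0.0952 to every difference, and had 0.0447 after quantile normalization and 0.052 after background subtraction with centring, where the cause was not tested. Large subunit ribosomal protein genes called higher numbered 61 after centring, 61 after background subtraction with centring and 61 after centring with the replicate block, against 33 as deposited, 48 after quantile normalization, 41 with the replicate block as deposited and 27 to 40 with 1 array left out. The letters A, B and C were used as a replicate block. Deviations of arrays with the same letter correlated at 0.0436, 0.029 and 0.0618, all under 0.1, and the main fit did not pair them. Each array still correlated best with its own letter, which is a hint from the data and not the design. These correlations take no account of a shift of a whole array, and array B had the lowest median in both groups. With the replicate block 34 of the 40 genes were called higher as deposited, NOP4 being added, and 39 after centring. A choice between probe sets could not be varied, since each of the 40 genes had 1 probe set.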
